A study of Mus musculus with 4 samples.

Results

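Genes that build the cytoskeleton and growth cone of newborn neurons were followed in RNA from the embryonic mouse brain with and without gasdermin D (Gsdmd), a protein that forms pores in membranes when it is cleaved. The 10 genes were Tubb3, Dcx, Map2, Mapt, Stmn2, Gap43, Ina, Nefl, Nefm and Dpysl3. They were taken by their gene names from a count table of 26955 genes, in which each name stands on 1 line. All 10 were among the 15804 genes that passed the filter on low counts.

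The samples were cKO and control brains at embryonic day 13 on the C57BL/6 strain. The cKO libraries, of genotype GSDMDfl/fl;Nestin-Cre, carry the replicate numbers 2 and 6. The control libraries are labelled WT and carry the numbers 4 and 5. The study's methods name the tissue cortex and the control mice Gsdmd fl/fl, so that by this account the floxed allele is shared by both groups and Cre is found in cKO alone. The Nestin promoter drives Cre in neural progenitors, and cells of other origin in the tissue, such as microglia and blood cells, keep the gene. The submitters describe triplicates, and the 4 libraries analysed here are 2 of each group. Whether libraries of a group came from separate mice is not stated. Control 4 had 1 count of Xist and 2145 of Y-linked genes, the male pattern. Control 5 had 7640 and 4, the female pattern, so the controls were not technical repeats of 1 sample. Both cKO libraries had the male pattern (2191 and 1857 Y-linked counts), and whether they came from separate mice was not tested. A p-value reflects only how these libraries spread, which in cKO may be technical.

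A neuron that leaves the cell cycle extends a leading process, an axon and later dendrites, all of which rest on microtubules. The β-tubulin Tubb3 is assembled into these microtubules, Dcx, Map2 and Mapt bind along them, and Stmn2 binds free tubulin and favours disassembly. Neurofilaments, built from Nefl, Nefm and Ina, fill the axon as intermediate filaments, while Gap43 lies under the membrane of the growth cone and Dpysl3 acts there on tubulin and actin.

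Between 16962553 and 18205945 reads were counted per library. Gsdmd was counted 13 and 7 times in cKO and 54 and 43 times in the controls, which goes with the labels. Control replicate 5 stood apart in sex-linked genes, with 7640 counts of Xist against 1 to 12 in the other libraries and 4 counts of 4 Y-linked genes against 1857 to 2191. In these bulk samples, fewer cells of a type and less RNA per cell cannot be told apart.

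No member differed between cKO and control beyond the threshold used, an adjusted p under 0.05. Dpysl3 was the member with the strongest evidence of a difference, at 1.27 times the control level in cKO. The other estimates lay between 0.742 times for Nefl and 1.14 times for Mapt. With edgeR's quasi-likelihood test and Benjamini-Hochberg adjustment over all tested genes, 0 of 10 members were called lower, against a background of 0.196% of all tested genes, and 0 of 10 higher, against 0.00633%. At an unadjusted p under 0.05, 0 members were lower and 1, Dpysl3, was higher, against 3.79% and 3.32% of all tested genes. DESeq2 also called 0 members, against 0.430% of all tested genes lower and 0.0823% higher. The same held for edgeR's likelihood ratio fit, against 0.785% and 0.152%, and for limma-voom, against 0.171% and 0%. Of the 10 estimates 8 were below 0, and their median log2 fold change was -0.14, beside -0.01 over all tested genes, 47.6% of which were above 0. This median was -0.25 without control replicate 4 and 0.01 without control replicate 5.

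Levels of both cKO libraries lay below those of both controls in 4 of 10 members (Dcx, Map2, Stmn2 and Nefm), beside 20.3% of all tested genes. They lay above in 1 of 10 (Dpysl3), beside 16.9% of all tested genes. The groups overlapped for Tubb3, Mapt, Gap43, Ina and Nefl. With 2 libraries against 2, an exact two-sided permutation test of 1 gene cannot go below p = 0.333.

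**Figure D1:**
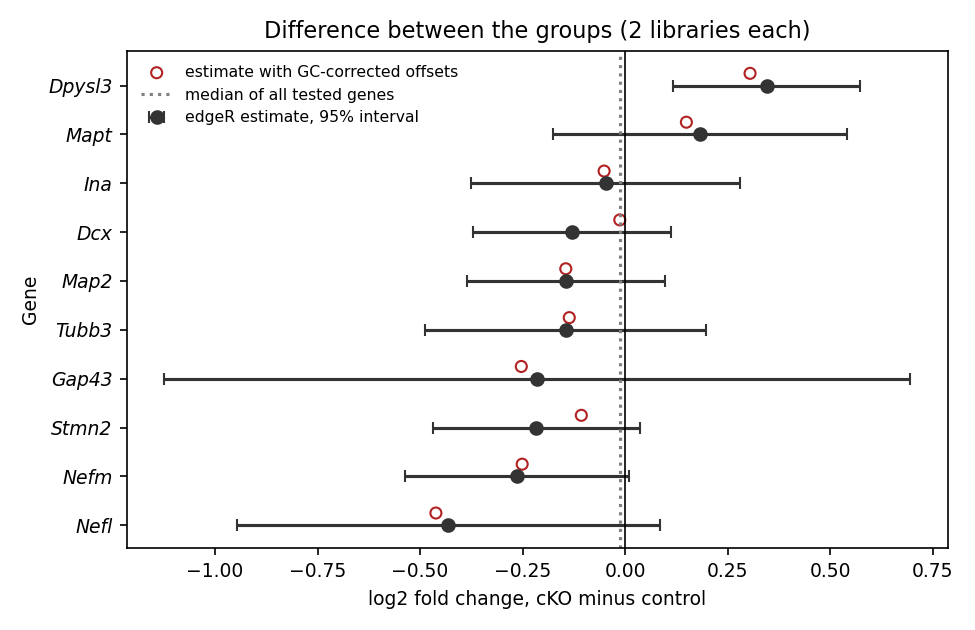
Log2 fold change of each gene, cKO minus control (x axis), with its 95% interval from edgeR (black, 2 libraries per group), the estimate after a correction for GC content (red circles), and the median of all tested genes (dotted line). The interval of Dpysl3 runs from 0.12 to 0.57 and is the only 1 of the 10 that does not reach 0, and that of Gap43, from -1.12 to 0.70, is the widest.

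The members spanned a wide range of abundance. Levels between genes were compared as CPM (the reads of a gene scaled to a common library size) divided by the length of all exons in kilobases. Tubb3 stood first with a mean of 1261 CPM per kb. It was followed by Dpysl3 with 202.0, Gap43 with 191.4, Ina with 133.4, Stmn2 with 108.6 and Mapt with 88.3 CPM per kb. Dcx with 45.8, Map2 with 30.5, Nefm with 10.1 and Nefl with 5.91 CPM per kb ended the order. The light and medium neurofilament genes were thus the least abundant, while Ina, the α-internexin of the same family, stood in the upper part of the order. Neighbours in this order whose library values overlapped were Dpysl3 and Gap43, Gap43 and Ina, Ina and Stmn2, and Stmn2 and Mapt. All other neighbours were separated in all 4 libraries. The order depends on the exon length, which was taken over all annotated transcripts, 16.4 kb for Map2 and 1.52 kb for Gap43. In CPM without this division, Map2 had means of 476.7 in cKO and 526.7 in the controls. Those of Gap43 were lower, 269.9 and 313.

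**Figure D2:**
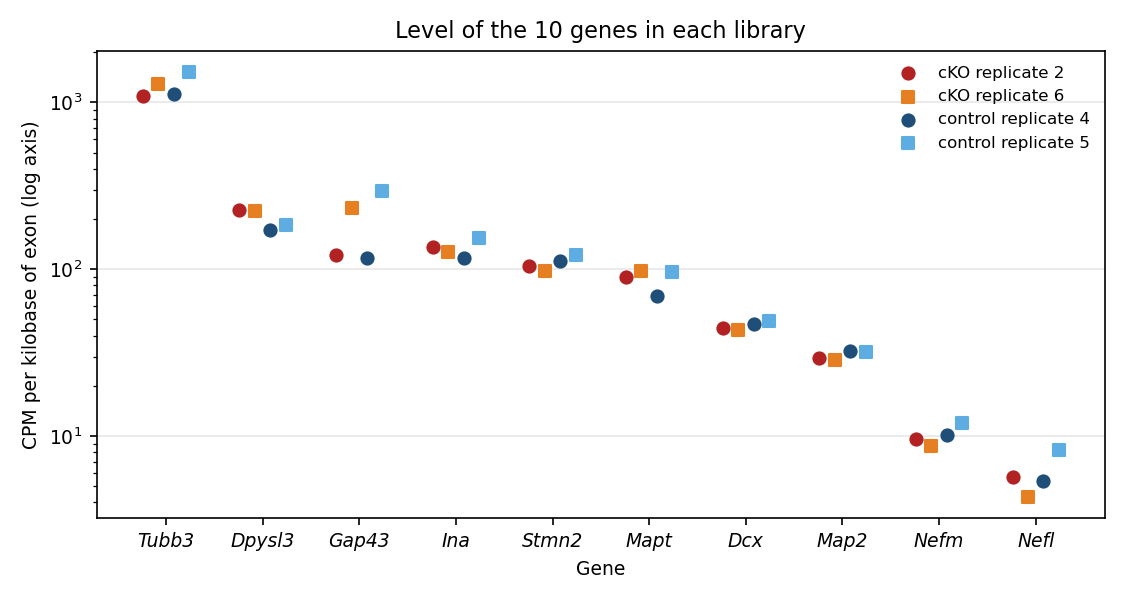
Level of each of the 10 genes in each library, in CPM per kilobase of exon on a log axis. Tubb3 lies between 1096 and 1523 in all libraries, Nefl between 4.34 and 8.21, and the values of Gap43 split into a low pair, 121.1 in cKO 2 and 116.2 in control 4, and a high pair, 233.3 in cKO 6 and 294.9 in control 5.

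Tubb3 encodes class III β-tubulin, the β-tubulin isotype used as a marker of neurons, and lies at chr8:123411424-123422015 on the plus strand. Because the β-tubulins are close relatives, the question is how far their reads can be told apart. The coding sequence of Tubb3 has 1353 bases and was aligned with those of Tubb2a, Tubb2b, Tubb4a and Tubb5. Identical bases made up 83.5%, 83.6%, 82.4% and 81.4% of the alignment positions, gaps included. The last 75 coding bases encode the tail in which isotypes differ most, and they are shown from the GENCODE annotation of GRCm38, 5′ to 3′. Capitals mark bases that differ from the aligned base of Tubb3 or stand opposite a gap, and in Tubb3 those that match none of the other 4 genes.
Tubb3: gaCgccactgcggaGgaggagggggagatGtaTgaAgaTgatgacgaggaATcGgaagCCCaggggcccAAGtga
Tubb2a: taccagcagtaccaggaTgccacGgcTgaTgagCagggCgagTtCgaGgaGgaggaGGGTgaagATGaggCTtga
Tubb2b: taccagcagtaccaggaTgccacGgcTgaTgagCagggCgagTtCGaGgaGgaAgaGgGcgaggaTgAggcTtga
Tubb4a: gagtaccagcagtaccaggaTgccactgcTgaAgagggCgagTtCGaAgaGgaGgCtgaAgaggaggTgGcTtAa
Tubb5: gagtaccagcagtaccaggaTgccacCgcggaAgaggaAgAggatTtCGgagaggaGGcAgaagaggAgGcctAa
Over all exons of Tubb3, 0 of 1867 stretches of 50 bases occurred in another annotated gene.

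Tubb3 was measured at 2047 CPM in cKO 2 and 2426 in cKO 6, and at 2102 in control 4 and 2844 in control 5. Control 5 was the highest library and cKO 2 the lowest, and the groups overlapped. The means were 2237 ± 268 (SD, n = 2) in cKO and 2473 ± 525 (SD, n = 2) in the controls. The log2 fold change was -0.15 (SE 0.15; edgeR adjusted p = 0.885), that is 0.904 times the control level with a 95% interval of 0.713 to 1.15. Without control replicate 5 it turned to 0.10. Levels within a group differed by 1.19 times in cKO and 1.35 times in the controls, and the SD between libraries relative to the mean (17.7%) was higher than in 90.4% of the 10020 genes with at least 10 CPM.

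The microtubule-associated members Dcx and Map2 were the steadiest and were slightly lower in both cKO libraries, while Mapt was higher in the mean but varied. Dcx, the doublecortin of migrating neurons (chrX:143855842-143933311, minus strand), had 559.5 CPM in cKO 2, 546.9 in cKO 6, 592.5 in control 4 and 618.6 in control 5. Both cKO libraries lay below both controls, by little. The log2 fold change was -0.13 (SE 0.11; edgeR adjusted p = 0.859), with an interval of 0.773 to 1.08 times the control level. Map2, which is best known from dendrites (chr1:66175273-66442583, plus strand), had 483.8 CPM in cKO 2, 469.6 in cKO 6, 531.2 in control 4 and 522.1 in control 5. Here too the groups did not overlap. Its log2 fold change was -0.14 (SE 0.11; edgeR adjusted p = 0.845), with an interval of 0.765 to 1.07 times. The SD of Map2 between libraries of a group was 1.68% of the mean and that of Dcx 2.50%, beside a median of 8.29% over genes with at least 10 CPM and 11.97% over the 10 members.

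Mapt encodes tau, the microtubule-binding protein of axons (chr11:104231390-104332090, plus strand). Mapt had 680.1 CPM in cKO 2, 733.3 in cKO 6, 518.2 in control 4 and 727.0 in control 5. Control 4 was low and the other 3 libraries were close to each other, so the groups overlapped. The log2 fold change was 0.18 (SE 0.16; edgeR adjusted p = 0.869), with an interval of 0.885 to 1.46 times the control level. Without control replicate 4 it was -0.04.

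Stmn2 encodes stathmin-2, which is found in growth cones and is used as a marker of outgrowing axons (chr3:8509360-8561606, plus strand). It had 582.5 CPM in cKO 2, 543.3 in cKO 6, 626.8 in control 4 and 680.8 in control 5. Both cKO libraries were below both controls, and the means were 562.9 ± 27.7 and 653.8 ± 38.2 (SD, n = 2 each). The log2 fold change was -0.22 (SE 0.11; edgeR adjusted p = 0.759), or 0.861 times with an interval of 0.723 to 1.03. The other 3 stathmin genes (Stmn1, Stmn3 and Stmn4) also had estimates below 0, from -0.18 for Stmn3 to -0.09 for Stmn4 on the log2 scale, and 0 of them were called or had an unadjusted p under 0.05.

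The neurofilament genes lay lower in the cKO mean, least so for Ina. Nefl and Nefm encode the light and medium chains and Ina encodes α-internexin, which enters axons early in development. Nefl (chr14:68083863-68089095, plus strand) and Nefm (chr14:68082590-68124846, minus strand) are annotated on opposite strands, and 1108 exon bases of a long Nefm transcript cover those of Nefl. Whether reads were counted by strand is not stated in the sources at hand, so reads from these bases cannot be told apart and both genes' values are uncertain. In the same way Ina (chr19:47014698-47025327, plus strand) shares 456 exon bases with Nt5c2 on the other strand, which had 3087 counts over the 4 libraries.

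Nefl had 351 counts in cKO 2, 263 in cKO 6, 316 in control 4 and 466 in control 5, or 19.3, 14.7, 18.1 and 27.7 CPM. Control 5 was high, cKO 6 was low, and cKO 2 lay above control 4. Its log2 fold change was -0.43 (SE 0.23; edgeR adjusted p = 0.76), the most negative estimate of the 10, with an interval of 0.519 to 1.06 times the control level. Without control replicate 5 it was -0.08 and without control replicate 4 it was -0.71. Nefm had 55.6 CPM in cKO 2, 50.7 in cKO 6, 58.8 in control 4 and 69.0 in control 5. Both cKO libraries were below both controls. The log2 fold change was -0.26 (SE 0.12; edgeR adjusted p = 0.705), with an interval of 0.689 to 1.01 times. Ina had 439.7 CPM in cKO 2, 410.5 in cKO 6, 379.3 in control 4 and 499.0 in control 5. The controls lay on either side of the cKO libraries. Its log2 fold change of -0.05 (SE 0.14; edgeR adjusted p = 0.973; interval 0.771 to 1.21 times) turned to 0.17 without control replicate 5 and to 0.01 without cKO replicate 6.

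Dpysl3, also known as CRMP4, is a collapsin response mediator protein of growth cones (chr18:43320979-43438286, minus strand) and was the only member whose cKO libraries were both above both controls. It had 1508 CPM in cKO 2, 1480 in cKO 6, 1140 in control 4 and 1212 in control 5. The gap between the groups was larger than the difference within either of them, and the means were 1494 ± 19.8 and 1176 ± 51.0 (SD, n = 2 each). The log2 fold change was 0.35 (SE 0.10), or 1.27 times with an interval of 1.09 to 1.49. The unadjusted p of edgeR's test was 0.00759, which ranked 260 among all tested genes, and the adjusted p was 0.461. Over the 14 alternatives the log2 fold change ran from 0.30 to 0.40 and the adjusted p from 0.293 to 0.815. Close to Dpysl3 lie Gm3650 (chr18:43472816-43475169) and Eif3j2 (chr18:43475418-43477796), which were both called lower in cKO. Their log2 fold changes were -5.76 (edgeR adjusted p = 0.00179) and -5.18 (edgeR adjusted p = 5.85e-05). The 10 nearest genes with at least 5 CPM, Eif3j2 among them, had a median of -0.06. Any link to the level of Dpysl3 was not tested. The other genes of the family did not share this pattern in all libraries. Dpysl2 had 446 and 465.6 CPM in cKO and 478.2 and 545.1 in the controls, Dpysl5 had 663.6 and 841.5 against 624.8 and 762.5, and Crmp1 had 1123 and 1350 against 986.4 and 1324. The controls lay above both cKO libraries for Dpysl2, and the groups overlapped for Dpysl5 and Crmp1. Of the 4 other family members tested, 0 had an unadjusted p under 0.05.

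Gap43, the growth-associated protein of axon tips (chr16:42248442-42340651, minus strand), was the member that varied most, and it varied within both groups. It was counted 3347 times in cKO 2, 6373 in cKO 6, 3085 in control 4 and 7546 in control 5, or 184.4, 355.3, 176.9 and 449.2 CPM. The values of cKO 2 and control 4 were close to each other, and those of cKO 6 and control 5 were about 2 times as high. The ratio within cKO was 1.93 and within the controls 2.54. The SD between libraries of a group was 55.2% of the mean, higher than in 99.8% of the genes with at least 10 CPM. The comparison of the groups gave a log2 fold change of -0.21 (SE 0.40; edgeR adjusted p = 0.944) with an interval of 0.459 to 1.62 times, which leaves the group difference of Gap43 poorly measured.

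What is found for Gap43 between the groups depended on which library was left out. Gap43 was called lower in cKO without cKO replicate 6, with a log2 fold change of -0.75 and an adjusted p of 0.0208, and without control replicate 4, with -0.73 and 0.0107. In these fits 0.712% and 1.21% of all tested genes were called lower. It turned to 0.18 without cKO replicate 2 and to 0.62 without control replicate 5. Over all 14 alternatives its adjusted p (edgeR, DESeq2 or limma) ran from 0.0107 to 1. The fits that called Gap43 lower compared 1 low and 1 high library with a high library alone, or a low library alone with 1 low and 1 high, and without control replicate 4 sex-linked expression and genotype cannot be told apart.

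**Figure D3:**
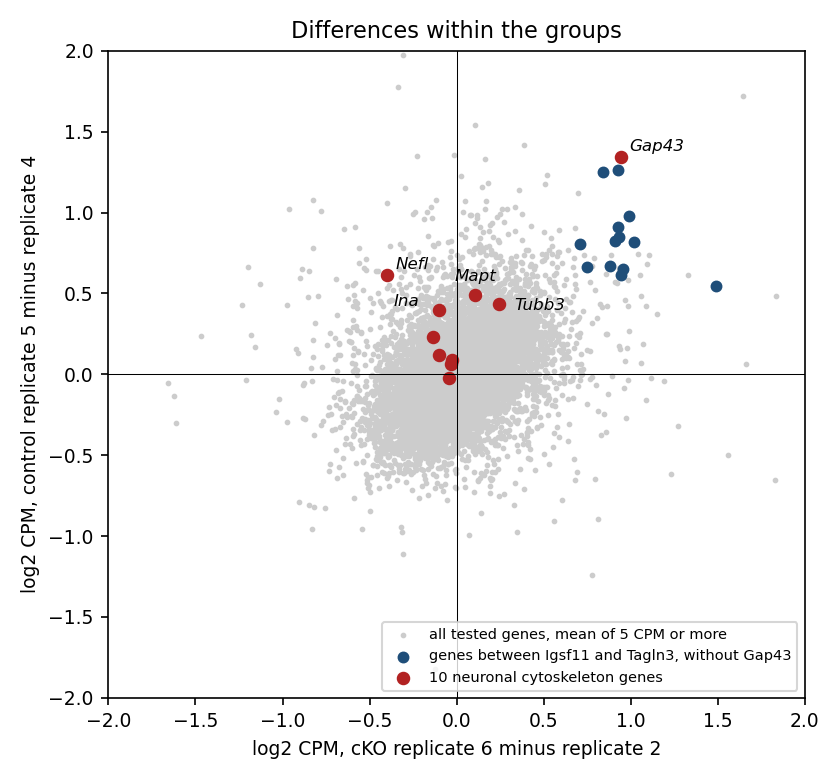
Difference in log2 CPM between the libraries of a group for 11356 tested genes with a mean of at least 5 CPM (grey), the 10 members (red) and the genes between Igsf11 and Tagln3 on chromosome 16 (blue). Gap43 lies far from the other 9 members, among its chromosomal neighbours, and 24 genes, including BC002163 of the same stretch, lie outside the axes at 2.

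The same 2 levels were seen for nearly all expressed genes around Gap43. The stretch was chosen after its values were seen, so they are given as a description. Between Igsf11 and Tagln3, 22 genes were tested and 15 of them, from Lsamp to Cd200 (chr16:39984361-45409053, 5.42 Mb), had a mean of at least 5 CPM. In 14 of them the log2 CPM was higher by more than 0.5 both in cKO 6 than in cKO 2 and in control 5 than in control 4. Outside the stretch this held for 59 of 11341 genes (0.520%). Without Gap43 the median ratio of the 14 genes left was 1.90 in cKO and 1.755 in the controls. Of 17 genes within 1.2 Mb on either side, 0 showed it.

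The genes that share this pattern do unlike things. Lsamp, an adhesion protein of the limbic system, had 12.2 CPM in cKO 2, 21.8 in cKO 6, 13.2 in control 4 and 31.5 in control 5. Atp6v1a, a subunit of the proton pump of lysosomes, had 37, 70.2, 40.2 and 75.5 CPM in the same order. Atg3, an enzyme of autophagy, had 23.5, 46.6, 24.6 and 48.5 CPM. In each of them cKO 2 and control 4 were low and cKO 6 and control 5 high. Boc, a receptor for hedgehog ligands, had 47.4, 96.4, 39.5 and 69.5 CPM, and Cd200, a membrane glycoprotein that binds a receptor on myeloid cells, had 34.1, 64.8, 30.9 and 73.9 CPM. Past the ends the step was gone, as in Tagln3, a neuronal gene, with 363, 388, 391 and 392 CPM. Igsf11, an adhesion protein on the other side, had 19.7, 11.2, 15.8 and 12.2 CPM and was not higher in cKO 6 or control 5. Among the 15 genes with at least 5 CPM the exception was BC002163, with 24.3, 0.223, 27.9 and 30.2 CPM. Of the less expressed genes of the stretch, Cfap44 (within-group ratios of 0.759 in cKO and 2.08 in the controls), Tmprss7 (1.07 and 1.01) and Gcsam, at 0 in cKO 6 and control 5, did not show it in both groups.

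**Figure D4:**
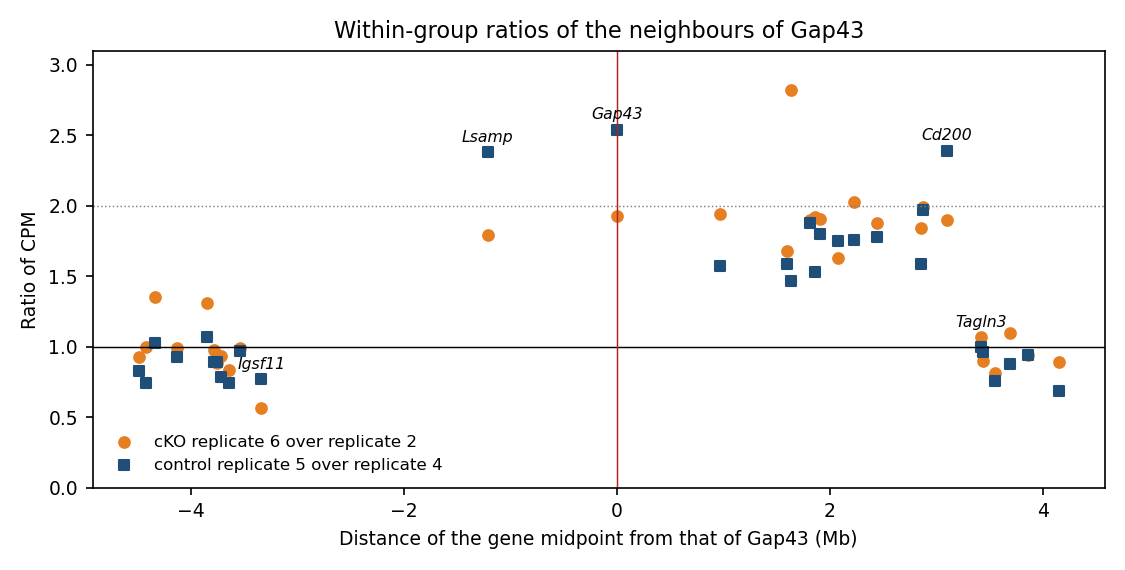
Ratio of CPM within cKO (orange, replicate 6 over 2) and within the controls (blue, replicate 5 over 4) for tested genes with at least 5 CPM around Gap43, by distance of gene midpoints in Mb. At Igsf11 the ratios are 0.565 and 0.771 and at Tagln3 1.07 and 1, while those of Gap43 between them are 1.93 and 2.54, and BC002163, at 0.00916 in cKO and 1.08 in the controls, was left out of the plot.

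In windows of 7 neighbouring genes over all chromosomes, 14 of 11225 had both within-group medians above 0.5 on the log2 scale, and all 14 lay on chromosome 16, where they took in flanking genes as far as B4galt4 and Phldb2. In 0 windows were both medians below -0.5, and in 0 did they go in opposite directions. For the other 9 members, 0 of their 9 or 10 nearest genes had both differences above 0.5, beside 5 of 10 for Gap43. Each level was held by 1 library of each group. On all 4 libraries edgeR called 0 genes of the stretch between cKO and control, beside 0.196% of all tested genes lower and 0.00633% higher. With such a spread inside both groups (SE 0.40 for Gap43) the test could hardly call these genes, so the 0 tells little. Only RNA was measured, and what set the levels apart was not tested.

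Base composition moved with the differences within the groups in the same direction. GC content was taken from the longest annotated transcript of each gene. Over 11349 genes with at least 5 CPM, it had a Spearman correlation of 0.533 with the log2 difference between cKO 6 and cKO 2. The correlation was 0.496 with that between control 5 and control 4, and 0.315 with the fold change between the groups. These are descriptions over genes that share the same 4 libraries. Genes of 48 to 52% GC, the class of Gap43 with 49.7%, had median within-group differences of -0.02 and -0.04 on the log2 scale, where Gap43 had 0.95 and 1.34. Genes of 56 to 60%, the class of Tubb3 with 57.9%, had 0.18 and 0.16. In the comparison of the groups, genes of 40 to 44% GC, the class of Dcx (40.6%) and Stmn2 (41.3%), had a median log2 fold change of -0.11. With offsets corrected for GC content, an alternative chosen after seeing the data, the log2 fold change of Dcx went from -0.13 to -0.01 and that of Stmn2 from -0.22 to -0.11. That of Dpysl3 went from 0.35 to 0.30 and that of Nefm from -0.26 to -0.25, and 0 members were called.

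Related genes were examined in 7 lists of the cytoskeleton, the growth cone and axonal transport, which held 86 genes without the 10 members. Of the 84 tested, edgeR called 0 on all 4 libraries. An unadjusted p under 0.05 was found for 2 in the lower and 3 in the higher direction. The background over all tested genes is 3.79% and 3.32%. DESeq2, limma-voom and the likelihood ratio test also called 0 of them. The estimates were above 0 in 32 and below 0 in 52, with a median log2 fold change of -0.04 beside -0.01 over all tested genes. The genes lower at an unadjusted p under 0.05 were Map7 (-0.48, SE 0.21), a microtubule-associated protein that recruits kinesin, and Pfn2 (-0.31, SE 0.11), a profilin that binds actin. The genes higher at that threshold were Camsap1 (0.30, SE 0.11), which binds microtubule minus ends, Prph (1.70, SE 0.47), and Dync1h1 (0.46, SE 0.11), the heavy chain of the dynein motor.

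By list, the tubulins had 3 estimates above and 11 below 0 (median -0.06), and the other microtubule-associated proteins 7 and 13 (median -0.03). The other growth cone and membrane proteins had 4 above and 14 below 0 (median -0.07), and the axonal motor proteins 11 above and 7 below (median 0.09). Dync1h1 had 756.2 CPM in cKO 2, 734.7 in cKO 6, 578.8 in control 4 and 505.5 in control 5, with both cKO libraries above both controls (edgeR adjusted p = 0.322). Prph encodes peripherin, an intermediate filament of peripheral neurons, and had 2.204 CPM in cKO 2, 5.63 in cKO 6, 0.917 in control 4 and 1.49 in control 5 (edgeR adjusted p = 0.437). Both cKO libraries were above both controls at these low levels. Without cKO replicate 2 edgeR called Prph (log2 fold change 2.23) and Cntn2, an axonal adhesion protein (0.605), higher, and without control replicate 4 it called Prph (1.39) higher. These fits called 0.549% and 0.566% of all tested genes higher, and the group with 1 library is assumed there to vary like the other. The other 7 markers of peripheral and cranial sensory neurons, of which 3 were tested, summed to 4.02 CPM in cKO 2, 3.96 in cKO 6, 3.33 in control 4 and 3.81 in control 5.

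**Figure D5:**
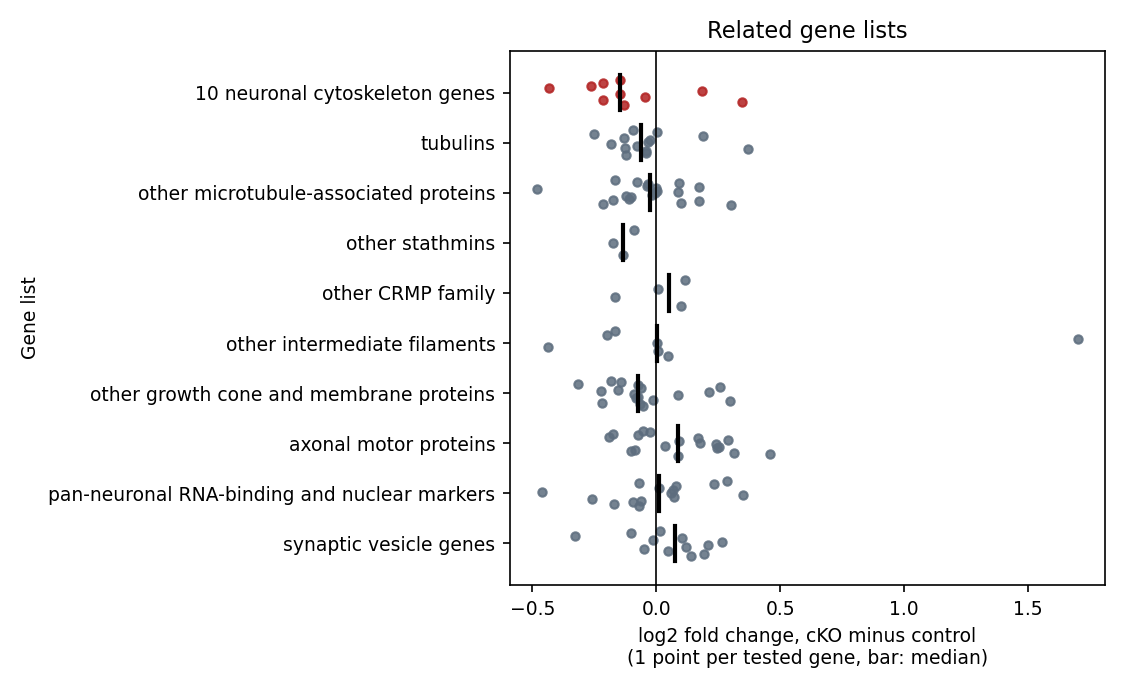
Log2 fold change, cKO minus control, of each tested gene (points) and the median (bars) for the 10 members (red) and 9 related lists. Medians of the related lists lie between -0.13 for the other stathmins and 0.09 for the axonal motor proteins, and Prph is the point at 1.70.

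General markers of neurons had estimates on both sides of 0. In a list of 15 RNA-binding and nuclear proteins of neurons, 8 estimates were above and 7 below 0 (median 0.01), and in a list of 12 synaptic vesicle genes 8 were above and 4 below (median 0.08). On all 4 libraries edgeR called 0 of these 27 genes, and 3 lower and 1 higher had an unadjusted p under 0.05. The background over all tested genes is 3.79% lower and 3.32% higher. Nova1, a neuronal splicing regulator, had 52.9 CPM in cKO 2, 46.4 in cKO 6, 62.2 in control 4 and 74.3 in control 5 (log2 fold change -0.46, SE 0.13; edgeR adjusted p = 0.431). Both cKO libraries were below both controls. Without control replicate 4 the log2 fold change of Nova1 was -0.58. That of Nhlh1, a transcription factor of early neurons, was 0.56 without cKO replicate 2. Srrm4, which regulates neuronal microexons, had 159 and 175.3 CPM in cKO against 134.7 and 139.9 in the controls, in the other direction.

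Markers of regional neuron types and of other cells differed in level between the groups in some lists. The 13 markers of ventral and GABAergic neurons all had estimates below 0 (median log2 fold change -0.56) and summed to 703.1 to 1007 CPM in cKO and 1156 to 1394 in the controls. Of them edgeR called 0, and 10 had an unadjusted p under 0.05, beside 3.79% of all tested genes. DESeq2 called 2 of them lower, beside 0.430% of all tested genes, and the likelihood ratio test called 3, beside 0.785%. With 1 library left out, the calls of edgeR depended on which library it was, and none was made without control replicate 5. Of 12 tested hypothalamic and thalamic markers, edgeR called 3 lower (Hmx2, Hmx3 and Bsx), beside 0.196% of all tested genes. The list had a median of -1.30 and sums of 108.2 to 133.5 against 225.6 to 274.2 CPM. The 3 called genes had 0 to 0.11 CPM in cKO and 2.35 to 3.39 in the controls. They passed the filter on low counts only through the controls. None of these was called without control replicate 5 or without a filter. Of 6 tested choroid plexus markers 1 was called lower (Otx2), and their sums were 4.96 to 5.30 CPM in cKO and 18.9 to 172.7 in the controls. Single genes carried the control sums. Ttr alone had 142.1 CPM in control 5, against 0.573 in control 4, and Otx2 alone had 15.6 CPM in control 4. Otx2, too, was not called without control replicate 5 or without a filter. Cortical excitatory markers had 11 of 12 estimates above 0 (median 0.11), with 0 called by edgeR on all 4 libraries. Erythroid markers summed to 526 to 567.6 CPM in cKO and 688.8 to 1036 in the controls. On all 4 libraries edgeR called 0 of them, and 8 of 9 were lower at an unadjusted p under 0.05, beside 3.79% of all tested genes. The part of these cells in the levels of Dcx, Map2, Stmn2, Nefm and the other members was not tested.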

How the data were processed

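The authors sequenced RNA of 4 embryonic brain libraries and deposited a table of unscaled counts, in whole reads for each gene. Per the submitters' processing notes they used TopHat2 2.0.12, Bowtie2 2.2.3, HTSeq 0.6.0 and the build mm9. Of 26897 positions in the table, 92.9% equalled those of GENCODE for GRCm38, as did 9 of 10 members (not the start of Dpysl3), and none was converted. A strand setting for the counting was not stated. The table also holds the authors' mean signal per gene, their ratio of group means, the log2 of that ratio, and p-values by the authors, none of which was used. A single emptied line was not analysed here.

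The counts were tested in R 4.3.3 with edgeR 4.0.16 (filterByExpr, TMM, glmQLFit and glmQLFTest, prior count 0.125, no covariate), with limma 3.58.1 and DESeq2 1.42.0 as alternatives. Adjusted p-values are Benjamini-Hochberg over all 15804 tested genes, and genes under 0.05 were called. CPM use TMM-scaled library sizes. The SE is the absolute log2 fold change over the square root of F, and 95% intervals use the t quantile of the fit. Every member had at least 263 counts in each library, so that the spread between libraries more than counting error limits precision. edgeR estimates this spread partly from other genes. The SE, interval and p of a member therefore do not measure its own spread alone. Replicates of a group differed beyond sampling noise (chi-square per gene of 13.3 and 14.5). Exon length, GC content and coding sequences came from GENCODE M21. Protein sequences were not used here. Other alternatives were other scalings and filters, leaving out each library or the X and Y genes, and GC-corrected offsets (loess, chosen after seeing the data). Scripts were first tested on simulated data.

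The members and gene lists were chosen with earlier results of these data known. All 10 members are named, and of each related list the called genes and up to 3 with the smallest p could be named. Genes around Gap43 were chosen after their values were seen. Some sequences and single genes are not reported here.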

Additional observations from a re-analysis of the deposited data

How the results depend on the processing

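With 2 libraries per group, precision was set by the spread between libraries, which edgeR estimates partly from other genes. No paired analysis was possible because the groups share no replicate number. Members called lower were 0 in all fits on 4 libraries and 0 to 1 with a library left out, the 1 being Gap43. Members called higher were 0 throughout. Of the members' fold changes under each alternative, 131 kept direction and side of the threshold, 6 changed sign and 2 passed the threshold. With a library left out, Tubb3 ran from -0.35 to 0.10, Mapt from -0.040 (without control replicate 4) to 0.46, Gap43 from -0.75 to 0.62 and Ina from -0.23 to 0.17 on the log2 scale, and the other 6 members kept their sign. Over all genes, 31 were called lower in the fit reported, 68 by DESeq2, 124 by the likelihood ratio test, 8 without a filter and 0 to 199 with a library left out. Called higher were 1 in the fit reported, 2 with library totals, 13 by DESeq2, 24 by the likelihood ratio test, 0 to 93 with a library left out, and 0 with DESeq2 size factors, upper quartile scaling, limma-voom, GC-corrected offsets, a minimum of 1 CPM or no filter at all. The cause was not tested.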

Other observations

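Among progenitor markers, Sox1, a transcription factor of dividing neural progenitors, had 110 CPM in cKO 2, 104.9 in cKO 6, 153 in control 4 and 152.1 in control 5 (log2 fold change -0.51, SE 0.10; edgeR adjusted p = 0.177). Both cKO libraries were below both controls. Sox1 was called lower by DESeq2, beside 0.430% of all tested genes, and by edgeR's likelihood ratio test, beside 0.785%, and not by limma-voom. Sox2 had 182.6 and 177.4 CPM in cKO and 234.4 and 208.3 in the controls. Hes1 went the other way, with 35.1 and 36.7 CPM in cKO and 31.7 and 28.4 in the controls. Over the 13 progenitor markers, 7 estimates were above and 6 below 0, with a median of 0.01.

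Gcsam, at the end of the stretch around Gap43 toward Tagln3, was counted 15 times in cKO 2 and 19 times in control 4, the libraries with the low level of Gap43, and 0 times in cKO 6 and control 5. Tmprss7, next to it, was counted 33, 35, 35 and 34 times in cKO 2, cKO 6, control 4 and control 5, with no step between the libraries.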
